A study of Mus musculus with 4 samples.

Results

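The cells described here are donor-derived tracheal cells that contained RNA of the distal lung genes Sftpc or Ager. They were chosen by their raw counts of unique molecular identifiers (UMIs, 1 for each captured transcript): a barcode with at least 500 detected genes entered the set where its UMIs of Sftpc and Ager summed to at least 2. In the library of donor-derived cells from the recipient of iBCs, 215 of 1596 barcodes met that rule (13.5%, exact Clopper-Pearson 95% interval 11.8 to 15.2), out of 6784 barcodes in the 4 libraries of the study. They are called carriers below. They are set against the 1240 barcodes of the same library with 0 UMIs of both genes (zero cells), and 141 barcodes with exactly 1 UMI were kept out of both groups. Among the carriers, 85 had Sftpc and no Ager (Sftpc-only), 76 had Ager and no Sftpc (Ager-only) and 54 had both. Carriers with 10 or more UMIs of the sum, 67 in all, are called high carriers.

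iBCs are basal cells made in culture from mouse embryonic stem cells, and basal cells are the stem cells of the tracheal lining. The study transplanted 6000000 iBCs or primary basal cells into the tracheas of adult wild type mice, 5 hours after the detergent polidocanol (2%) had been given by the same route. One recipient of each kind was analysed: the iBC recipient (strain label 129 X1/S1) 192 days after transplantation, and the primary basal cell recipient (strain label C57BL/6) 69 days after it. Pronase-released, Calcein Blue-positive (live) cells of each trachea were sorted into GFP-positive (donor-derived) and GFP-negative (endogenous) cells, each of which gave 1 10x Chromium library. There is therefore 1 animal and 1 library per group. Donor kind, strain label, day and animal differ together between the recipients and cannot be told apart. Cells of 1 library are not replicates, so no test was run: intervals cover counting error only, and no difference below has a replicate check.

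As background, alveoli are lined by 2 epithelial cell types that a trachea does not have. Alveolar type 2 (AT2) cells make surfactant, the lipid and protein film that keeps alveoli open, and Sftpc, which encodes surfactant protein C, is their most specific marker. Alveolar type 1 (AT1) cells are flat cells for gas exchange, and Ager, which encodes the receptor for advanced glycation end products, is abundant in them, with the tight junction gene Cldn18 and the homeodomain-only gene Hopx. Sftpa1, Sftpb and Sftpd encode the other surfactant proteins, of which A and D also occur in airway secretory cells. Scgb3a2 encodes a secretoglobin of airway secretory cells.

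The genes that chose the cells lie apart from each other in GRCm38. In the GENCODE vM21 annotation Sftpc spans chr14:70520949-70524081 (minus strand) and Ager chr17:34597862-34600936 (plus strand). Sftpa1 (chr14:41131782-41136452, plus strand) and Sftpd (chr14:41172214-41185149, minus strand) are neighbours on chromosome 14. Lgi3 (chr14:70530685-70538324, plus strand), a gene of the AT2 list, lies close to Sftpc. Cldn18 spans chr9:99689461-99717267 (minus strand), Hopx chr5:77086988-77115121 (minus strand), Sftpb chr6:72304610-72314371 (plus strand) and Sfta2 chr17:35601549-35650571 (plus strand). Cldn18, Hopx, Sfta2, Igfbp7 and Timp3 overlap other genes on the opposite strand, and whether strand was used in counting is not given in the sources used here, so their UMIs may include reads of those partners.

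The promoters of Ager and of genes whose levels went with Sftpc or Ager are shown so that the start sites behind these values can be compared. Each is the 150 bases before a RefSeq transcript start in GRCm38.p6, read 5′ to 3′ on the gene's strand. Capitals mark matches on either strand to CTCAAG or CAAGTG, the core letters bound by NKX2-1, the lung and thyroid homeodomain factor; a match to one can overlap a match to the other.
Ager, chr17:34597700-34597849, plus strand: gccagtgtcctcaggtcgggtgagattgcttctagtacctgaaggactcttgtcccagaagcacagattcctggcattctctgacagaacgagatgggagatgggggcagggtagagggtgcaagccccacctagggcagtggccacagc
Cldn18 start 1, chr9:99717268-99717417, minus strand: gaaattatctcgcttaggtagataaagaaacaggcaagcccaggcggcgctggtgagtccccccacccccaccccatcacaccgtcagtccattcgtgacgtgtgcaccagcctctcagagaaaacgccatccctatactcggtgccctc
Cldn18 start 2, chr9:99710064-99710213, minus strand: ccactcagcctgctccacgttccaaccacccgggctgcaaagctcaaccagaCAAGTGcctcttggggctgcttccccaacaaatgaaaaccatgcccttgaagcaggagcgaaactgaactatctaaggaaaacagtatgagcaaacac
Sftpb, chr6:72304460-72304609, plus strand: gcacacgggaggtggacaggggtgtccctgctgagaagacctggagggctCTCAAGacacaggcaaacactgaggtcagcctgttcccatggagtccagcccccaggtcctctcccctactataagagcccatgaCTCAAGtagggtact
Sftpa1, chr14:41131638-41131787, plus strand: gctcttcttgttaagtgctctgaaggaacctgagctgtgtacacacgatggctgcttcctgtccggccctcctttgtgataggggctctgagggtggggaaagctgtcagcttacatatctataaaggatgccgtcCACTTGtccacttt
Within 250 bases before the start, CTCAAG occurred in 13.3% and CAAGTG in 11.6% of the 32851 RefSeq promoters. Sftpb held CTCAAG at -100 and -15 counted from the start, Cldn18 start 2 held CAAGTG at -98, and Sftpa1 held CAAGTG at -14. Beyond the printed bases Sftpa1 also held CTCAAG at -166 and CAAGTG at -202, and start 1 of Hopx, not printed, held CTCAAG at -112; Clic5 held neither. No match lay in the printed windows of Ager and Cldn18 start 1, which says only that these letters are not there. The counts do not separate the 2 Cldn18 starts.

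Carriers had about the depth of the cells they are compared with. Their median was 12366 UMIs (range 4392 to 47540) against 11965 in zero cells, 12192 in cells with 1 UMI and 13300 in high carriers, and the 3 kinds of carrier had medians between 12308 and 12366. Carriers had fewer detected genes (median 3150 against 3369) and a mitochondrial share of 4.38% against 4.65%. Of the carriers 6 (2.79%) were called doublets, against 16 (1.29%) of the zero cells. The reporter transcript EGFP was counted in 45.1% of carriers (38.3 to 52.0) and 49.1% of zero cells (46.3 to 51.9), but in 37.3% of high carriers; after thinning every cell to 5000 UMIs the shares were 25.7%, 27.2% and 16.4%. Over whole libraries EGFP was counted in 48.1% of the iBC donor-derived cells, in 97.9% of the primary donor-derived cells, and, among endogenous cells, in 0.0529% for the iBC recipient and 2.25% for the primary recipient. The 4 libraries held between 21504563 and 26625123 UMIs, and no pair of them shared more than 1 barcode.

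Cells that met the rule were rarer in the other 3 libraries. The rule found 7 of 1890 cells of the iBC endogenous library (0.370%), 40 of 1874 donor-derived cells of the primary recipient (2.13%) and 55 of 1418 of its endogenous cells (3.88%). In the primary recipient 34 of the 40 and 52 of the 55 were Sftpc-only, and their medians of 17958 and 20601 UMIs lay above those of the zero cells there (11642 and 13695). After thinning to 5000 UMIs the shares were 8.49% (7.15 to 9.99) in the iBC donor-derived library and 0.0569%, 0.433% and 0.569% in the others. Cldn18 had 673 UMIs in the iBC donor-derived library (31.3 CPM, counts per 1e+06 UMIs) and 0 in each of the other 3, where 3 counts would be between 0.113 and 0.138 CPM. Sftpb stood at 145 CPM in the iBC donor-derived and 88.6 CPM in the iBC endogenous library, and at 2.48 and 3.71 CPM in the libraries of the primary recipient.

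Many carriers sat near the threshold, and a few cells held most of the Sftpc. The sum of Sftpc and Ager ran from 2, through a median of 4, to 1720 UMIs. Just inside the rule, 58 carriers had exactly 2 UMIs and 28 had 3; just outside it lay the 141 cells with 1. The cell with the most Sftpc had 1713 UMIs of it and 7 of Ager, among 25494 UMIs in all, which was 47.0% of the library's 3643 Sftpc UMIs. The next 2 cells had 331 and 304, and these 3 cells held 64.5%. Ager was spread more evenly: its 1104 UMIs included at most 72 in 1 cell (6.52%). High carriers held 90.1% of the Sftpc and 69.0% of the Ager UMIs.

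**Figure D1:**
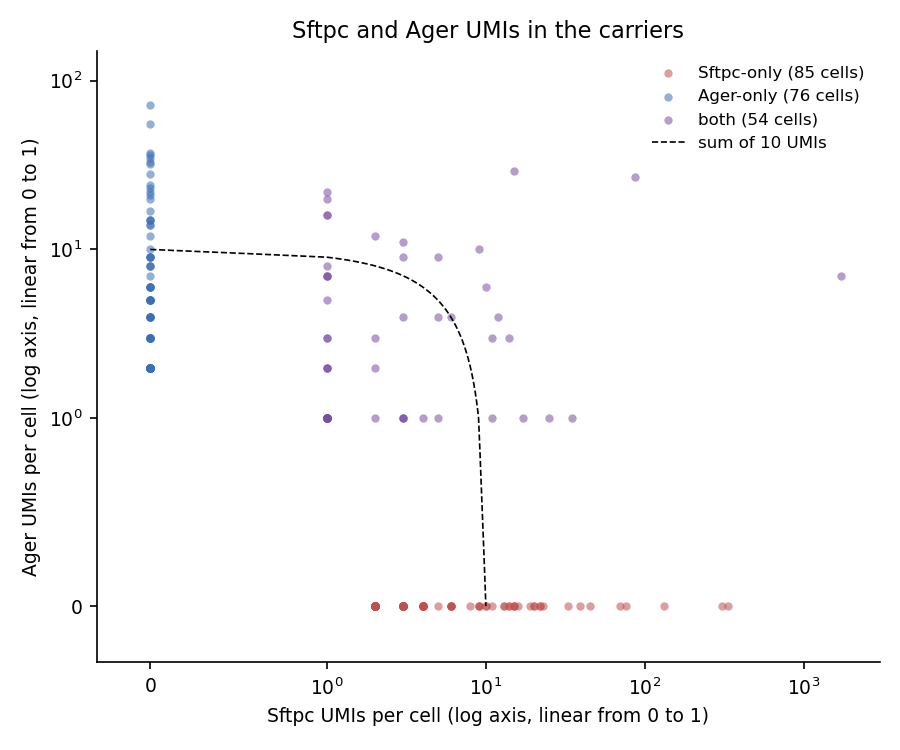
UMIs of Sftpc (x axis) and Ager (y axis) in each of the 215 carriers, on log axes that are linear from 0 to 1; darker marks are overlapping points and the dashed line marks a sum of 10 UMIs. High carriers lie mostly along one axis or the other, and the cell with 1713 Sftpc UMIs stands alone at the right.

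High carriers mostly had much of one gene. Of the 67, 36 had more Sftpc than Ager and 31 had more Ager, and in 55 of them at least 90% of the sum came from 1 gene. They comprised 25 Sftpc-only, 21 Ager-only and 21 cells with both, and 2 cells had 10 or more UMIs of each. Even so, each gene was detected more often in cells that had the other. Ager was detected in 24.1% (16.5 to 33.1) of the 112 cells with at least 2 Sftpc UMIs and in 8.69% of the 1358 cells with none, and Sftpc in 29.0% (20.6 to 38.5) of the 107 cells with at least 2 Ager UMIs and in 12.9% of the 1424 cells with none. In cells of cluster 1 (below) the first pair of shares was 42.9% and 14.8%, and in cells of cluster 0 it was 16.4% and 10.5%. Of the 54 carriers of both, 13 rested on 1 UMI of each gene.

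The single cell with 1713 Sftpc UMIs also carried 253 UMIs of Sftpa1, 122 of Sftpd, 6 of Lamp3, 14 of Clic5 and 6 of Cldn18, with 0 of Sftpb and 1 of Scgb3a2. Lamp3 encodes a protein of the lamellar bodies in which AT2 cells store surfactant. The same cell had 1084 UMIs of Scgb1a1, the main secretoglobin of airway secretory cells. The cell with the most Ager (72 of 24070 UMIs) had 26 UMIs of Cldn18, 49 of Hopx, 16 of Clic5 and 11 of Sfta2. Sums over carriers are therefore also given without the first of these cells where it moves them.

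Carriers lay mainly in 2 of 11 clusters, which were made from this library without Sftpc, Ager or any AT1 or AT2 marker among the clustering genes. Cluster 0 was basal-like (377 cells, led by Apoc1, Dcn, Ctgf, Dlk2, Timp3 and Trp63) and held 90 carriers, 23.9% of its cells (19.7 to 28.5). Cluster 1 was secretory-like (281 cells, led by Pon1, Scgb3a1, Hp, Scgb1a1, Muc5b and Sftpa1) and held 58, 20.6% (16.1 to 25.8). The AT2 markers Sftpa1, Slc34a2 and Muc1 were among the 10 leading genes of cluster 1 as a whole, carriers and zero cells together. These clusters held 41.9% and 27.0% of the carriers and 18.5% and 16.8% of the zero cells. By contrast carriers were 7 of 257 ciliated-like cells (2.72%), 5 of 203 cells of basal-like cluster 3 (2.46%) and 9 of 197 cells of secretory-like cluster 4 (4.57%). The shares did not follow depth: the median was 7638 UMIs in cluster 0, 15824 in cluster 1, 11729 in the ciliated-like and 16386 in cluster 4. After thinning they were 18.3%, 12.6%, 0.398% and 3.11% in that order.

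Sftpc and Ager were divided unequally among the clusters. Of the Sftpc-only carriers 51 of 85 were in cluster 0 and 12 in cluster 1, while of the Ager-only carriers 16 of 76 were in cluster 0 and 30 in cluster 1. All 11 carriers of cluster 7 (56 cells, unnamed, led by Ccl20, Ccl9 and Msln) were Ager-only, as were 9 of the 15 in basal-like cluster 5 (119 cells, led by Cxcl10) and 8 of the 14 in cluster 6 (60 cells, unnamed, led by Cldn18, Stap1 and Sult1c1). As for free RNA, ciliated-like cells, which should lack both genes, had a UMI of Sftpc in 11.7% of cells and of Ager in 3.11% (5.18% and 0.797% after thinning). In cluster 0 these shares were 31.8% and 13.3% (22.6% and 11.4%), in cluster 1 they were 13.2% and 18.5% (6.69% and 13.8%), and in cluster 7 they were 1.79% and 25%. A Sftpc UMI in cluster 1 was thus about as frequent as in ciliated-like cells, and 9 cells of cluster 1 had 10 or more. The part of free RNA in these shares was not tested.

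**Figure D2:**
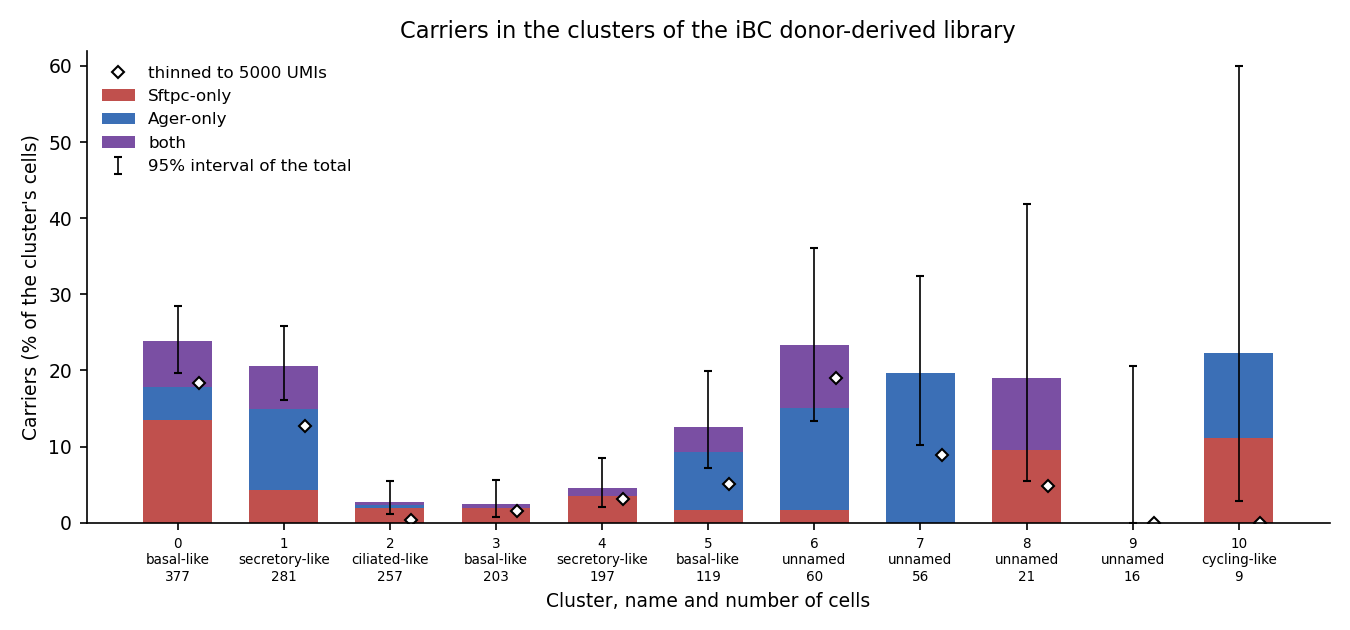
Share of each cluster's cells that were carriers (y axis, percent), as stacked bars for Sftpc-only, Ager-only and both, with exact 95% intervals of the sum as black lines and the share after thinning to 5000 UMIs as diamonds. Clusters 0, 1, 6 and 7 stand between 19.6% and 23.9%, and the ciliated-like cluster at 2.72%.

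Outside the genes of the rule, AT1 and AT2 marker genes were among those with the highest ratios of carriers to zero cells. A gene is called higher or lower below where the ratio of its summed CPM was at least 1.5-fold with a 95% interval (exact, conditional binomial) that excluded 1, where one of the sums reached at least 20 CPM. Of 6449 such genes 192 (2.98%) were higher in carriers and 621 (9.63%) were lower. Of 22 AT1 markers tested 9 were higher and 0 lower, with a median log2 ratio of 0.33; Cldn18 and Col4a3 reached 20 CPM in carriers alone. Of 18 AT2 markers tested 11 were higher and 2 lower, with a median of 0.74; Lgi3, Scd1, Lpcat1 and Cxcl15 reached it in carriers alone. A gene that is tested through carriers alone had to be higher there, and 9 of 31 listed AT1 and 11 of 29 AT2 markers were too low to be tested, so these counts describe the tested genes and not the lists. The median over all tested genes was -0.05. When zero cells were weighted to the carriers' mix of clusters, the higher genes made up 42.2% of all calls in place of 23.6%.

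The AT1 side was led by Cldn18, which seals the alveolar barrier: carriers had 140 CPM and zero cells 12.8 CPM, a 10.9-fold ratio (9.25 to 13.0). It came from 40 of the 215 carriers. Clic5, which encodes a chloride channel protein of AT1 cells, was 2.59-fold higher (216 against 83.4 CPM), and Hopx 1.93-fold (344 against 178 CPM). Col4a3 and Col4a4, chains of the alveolar basement membrane collagen, were 3.07- and 2.47-fold higher, the metalloproteinase inhibitor gene Timp3 2.47-fold (1265 against 511 CPM), Gramd2 2.13-fold, Vegfa 1.83-fold and Pdpn 1.62-fold. Syn3, within which Timp3 lies, was 2.77-fold higher, and its counts cannot be told apart from those of Timp3 without strand. The water channel gene Aqp5, which tracheal secretory cells also express, was at 938 and 1008 CPM. Other genes of AT1 cells were near 0: Rtkn2 had 2 UMIs in all carriers and 3 in zero cells, Igfbp2 6 and 39, and Akap5 11 and 20.

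On the AT2 side the surfactant protein genes were higher: Sftpb stood at 235 against 129 CPM (1.82-fold, 1.67 to 1.98) and Sftpd at 914 against 537 CPM (1.70-fold). Sftpa1 was 2.47-fold higher, but 39.5% of its UMIs in carriers came from the cell with the most Sftpc, and the ratio was 1.51 without that cell. Lgi3, a secreted protein gene expressed in AT2 cells that lies close to Sftpc, was 6.48-fold higher (23.4 against 3.60 CPM, 4.53 to 9.31) and was counted in 51 carriers. Of 15 tested genes of surfactant lipid handling, 5 were higher and 1, Fabp5, lower. Their median log2 ratio was 0.09, beside -0.05 over all tested genes. The higher ones included the desaturase gene Scd1 (2.84-fold), the phosphate transporter gene Slc34a2 (2.14-fold), the acyltransferase gene Lpcat1 (2.09-fold) and the lamellar body transporter gene Abca3 (1.52-fold). Scd1 and Lpcat1 reached 20 CPM in carriers alone. Lyz2 was 2.28-fold higher, with 45.7% of its UMIs from 1 carrier and 384 against 308 CPM without it; its log2 ratio was 2.35 without the cluster led by Ccl20 and 0.64 with zero cells weighted by cluster, in place of 1.18. Fabp5 and Ppp1r14c were the AT2 markers called lower (0.502 and 0.542 times). Napsa (13.0 against 3.0 CPM), Hc (12 UMIs in carriers) and Etv5 (18 UMIs) were too low to be tested, and Il33 had 0 UMIs in carriers.

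Of the 6 genes named as markers of these cells, Sftpa1, Hopx and Cldn18 were higher and Scgb3a2 was not. Scgb3a2 was at 3869 CPM in carriers and 5581 CPM in zero cells (0.693 times, 0.680 to 0.707), just short of the bound for a lower gene. Other AT1 and AT2 markers were higher, but Scgb3a2 was not, and Rtkn2, Etv5 and Hc were near 0. The cells are therefore named here by the rule, as carriers of distal lung marker RNA, and are given no cell type. Among lung transcription factors 1 of 20 tested was higher (Hopx) and 2 were lower (Foxj1 and Elf3). Nkx2-1 was 1.49-fold higher (88.1 against 59.3 CPM), just under the 1.5-fold bound. Of the 14 genes of distal airway secretory cells, 13 were tested, with Hp, Sftpd and Cckar higher and Scgb3a1 lower.

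The other leading genes were Sfta2, a surfactant-associated gene, at 52.7 against 5.10 CPM (10.3-fold, 7.89 to 13.6, in 63 carriers), and Igfbp7, a binding protein of insulin-like growth factors, at 164 against 49.7 CPM (3.30-fold, in 128 carriers). Ly6i was 4.19-fold, Rasl11a 3.89-fold, Pon1 2.46-fold and Apoc1 2.40-fold higher. Of Ly6i's UMIs in carriers 25.3% came from 1 cell. Apoc1 and Timp3 lead cluster 0 and Pon1 leads cluster 1, where most carriers lay. Cells just outside the rule lay between: Cldn18 was at 20.6 CPM (14.6 to 28.3) in cells with 1 UMI and 84.7 CPM in carriers with 2 to 9, Igfbp7 at 79.7 and 141 CPM, Lgi3 at 13.0 and 20.8 CPM, and Sftpb at 144 (127 to 163) and 223 CPM. With zero cells weighted to the carriers' mix of clusters, the log2 ratio went from 1.23 to 0.67 for Apoc1 and from 1.30 to 0.82 for Timp3. It went from 3.03 to 2.53 for Cldn18 and from 2.51 to 2.11 for Sfta2, and it was 1.43 for Igfbp7, 1.2 for Clic5, 1.03 for Hopx and 0.69 for Sftpb.

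Genes of the other airway types were lower in carriers. All 16 ciliated markers were lower, with a median log2 ratio of -1.5 (3 of them reached 20 CPM in zero cells alone). So were 8 of 15 secretory and 6 of 7 hillock markers (hillock cells are flat, keratin 13-positive airway cells). Of these lower genes, 4 secretory and 4 hillock markers reached 20 CPM in zero cells alone, so they had to be lower. The ciliated-like cluster held 7 of the 215 carriers and 220 of the 1240 zero cells. The gene that stood lowest was Bpifa1, an antimicrobial protein gene of secretory cells, with 0 UMIs in carriers against 149 CPM in zero cells (at least 149-fold lower, taking 3 counts for 0). Agr2 was 10.9-fold lower, Calml3 10.1-fold, Aoc1 9.55-fold, Muc16 8.64-fold, Plac8 7.0-fold, Areg 6.69-fold, the secretoglobin gene Scgb3a1 6.31-fold (404 against 2548 CPM), Cyp2a5 6.06-fold, Ltf 5.66-fold, Ccl9 5.53-fold and the ciliary dynein gene Dnah3 5.45-fold. With zero cells weighted to the carriers' clusters the log2 ratio went from -4.95 to -3.34 for Bpifa1, from -2.85 to -2.20 for Agr2, from -2.53 to -1.43 for Aoc1 and from -2.47 to -1.49 for Calml3. It went from -2.40 to -1.18 for Areg and from -1.99 to -0.96 for Dnah3, while Scgb3a1 went from -2.64 to -3.07 and Muc16 from -2.77 to -2.78. Without the cluster led by Ccl20, the log2 ratio of Ccl9 was -0.45 in place of -2.05. Of 24 genes of the transitional alveolar state, a keratin 8-rich state between AT2 and AT1, 0 were higher and 13 lower, among them Krt8 (0.501 times) and Cdkn1a (0.293 times). Of the 24, 4 reached 20 CPM in zero cells alone and could not be higher, and 3 of these, Cdkn1a included, are among the lower ones. Within clusters fewer transitional genes differed: 1 was higher and 1 lower of 17 tested in cluster 0, and 0 were higher and 4 lower of 14 in cluster 1. The lower one in cluster 0, Krt17, reached 20 CPM in zero cells alone. Of the 19 basal markers 6 were lower, Krt5 among them (0.660 times), and Icam1 and Dlk2 were higher.

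Of the markers of cells that could have entered the sort, most had 0 UMIs, and Dcn on the fibroblast list was called higher in carriers. Of 12 immune markers 8 had 0 UMIs in carriers, Ptprc among them, and their summed level was 30.02 CPM in carriers and 34.9 in zero cells, 92.2% and 73.7% of it from Arhgdib. Of 14 alveolar macrophage markers 10 had 0 UMIs in carriers, including Marco, Chil3, Ear2 and Itgax, with a sum of 153 against 282 CPM, and of 18.7 against 16.3 CPM without the epithelial gene Plet1. Of 8 endothelial markers 4 had 0 UMIs, with sums of 3.67 and 2.64 CPM. Of 8 fibroblast markers 6 had 0 UMIs, including Col1a1 and Col1a2, and the sum was 326 CPM in carriers against 206 in zero cells. Dcn, a leading gene of basal-like cluster 0, gave 99.9% of it in carriers. The part of such cells in the results was not tested.

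Sftpc-only and Ager-only carriers differed from each other in the genes the rule did not use. Of 6467 genes 969 (15%) were higher in Sftpc-only cells and 317 (4.9%) were lower. The median log2 ratio over all tested genes was 0.21, against which the lists below are to be read, and the secretoglobin gene Scgb1a1 alone was at 77001 CPM in Sftpc-only and 176239 CPM in Ager-only cells. With TMM scaling (trimmed mean of M values), which brought that median to -0.02, 490 genes were higher and 628 lower. All 15 ciliated markers tested were higher in Sftpc-only cells (median log2 ratio 2.23, with 10 of them at 20 CPM in Sftpc-only cells alone), as were 11 of 19 basal markers. Ager-only cells were higher in 10 of 18 AT2 markers (2 of them, Slc34a2 and Slc39a8, at 20 CPM in Ager-only cells alone), 6 of 24 AT1 markers and 6 of 7 genes of major histocompatibility complex (MHC) class II. Cldn18 among these AT1 markers and Ciita among these MHC genes also reached 20 CPM in Ager-only cells alone. Of the AT2 markers tested, 4 were higher in Sftpc-only cells. Of these, S100g, Lgi3 and Ppp1r14c reached 20 CPM in Sftpc-only cells alone, so they had to be higher there.

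Cldn18 was counted in Ager-only cells and not in Sftpc-only cells. Zero cells had 12.8 CPM, Sftpc-only carriers 0 UMIs (3 counts would be 2.81 CPM), Ager-only carriers 271 CPM (241 to 304) and carriers of both, without the cell with the most Sftpc, 144 CPM. It was counted in 0 of 85 Sftpc-only, 34.2% of Ager-only and 24.5% of the both cells. In the same order of groups, Clic5 was at 83.4, 94.7, 298 and 254 CPM, Hopx at 178, 238, 424 and 384 CPM, Sfta2 at 5.10, 21.6, 76.8 and 53.8 CPM, and Igfbp7 at 49.7, 105, 222 and 166 CPM. For Clic5 the intervals of Sftpc-only (77.2 to 115) and zero cells (79.1 to 87.9) overlapped. In these genes the carriers of both thus lay between the Sftpc-only and the Ager-only cells. They were nearer to the Ager-only cells for Clic5 and Hopx and about midway for Cldn18 and Igfbp7.

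The surfactant genes did not share 1 pattern. Sftpd was at 537 CPM in zero cells, 518 in Sftpc-only, 1303 in Ager-only and 782 CPM in both cells, so only the cells with Ager were above zero cells; the log2 ratio of Sftpc-only to Ager-only cells went from -1.32 to -0.09 with Ager-only cells weighted to the clusters of the Sftpc-only cells, which covered 77.6% of the UMIs. Sftpa1 was at 86.7, 57.2, 172 and 171 CPM in that order, and its log2 ratio went from -1.51 to -0.77 under the same weights. Sftpb was highest with Sftpc: 129, 250, 181 and 296 CPM, with intervals of 221 to 282 in Sftpc-only and 157 to 208 in Ager-only cells, and their 1.39-fold ratio (1.15 to 1.67) was not called. Lgi3 differed more, at 3.60, 32.8, 7.23 and 33.8 CPM, a 4.54-fold ratio of Sftpc-only to Ager-only cells (2.07 to 11.3). Ndnf was 5.81-fold, the basal factor gene Trp63 2.30-fold and Nkx2-1 1.5-fold higher in Sftpc-only cells. Zero cells themselves had Lgi3 at 15.9 CPM in cluster 0 and 1.19 CPM in cluster 1, and Ndnf at 5.66 and 1.48 CPM. Trp63 is a leading gene of cluster 0, which held 51 Sftpc-only and 16 Ager-only carriers. The part of this cell mix in the ratios of Lgi3, Ndnf and Trp63 was not tested. Lamp3 stood at 2.52, 19.7, 7.23 and 18.8 CPM, on 42, 21, 8 and 15 UMIs. Slc34a2 was at 9.38 CPM in Sftpc-only and 71.4 CPM in Ager-only cells.

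**Figure D3:**
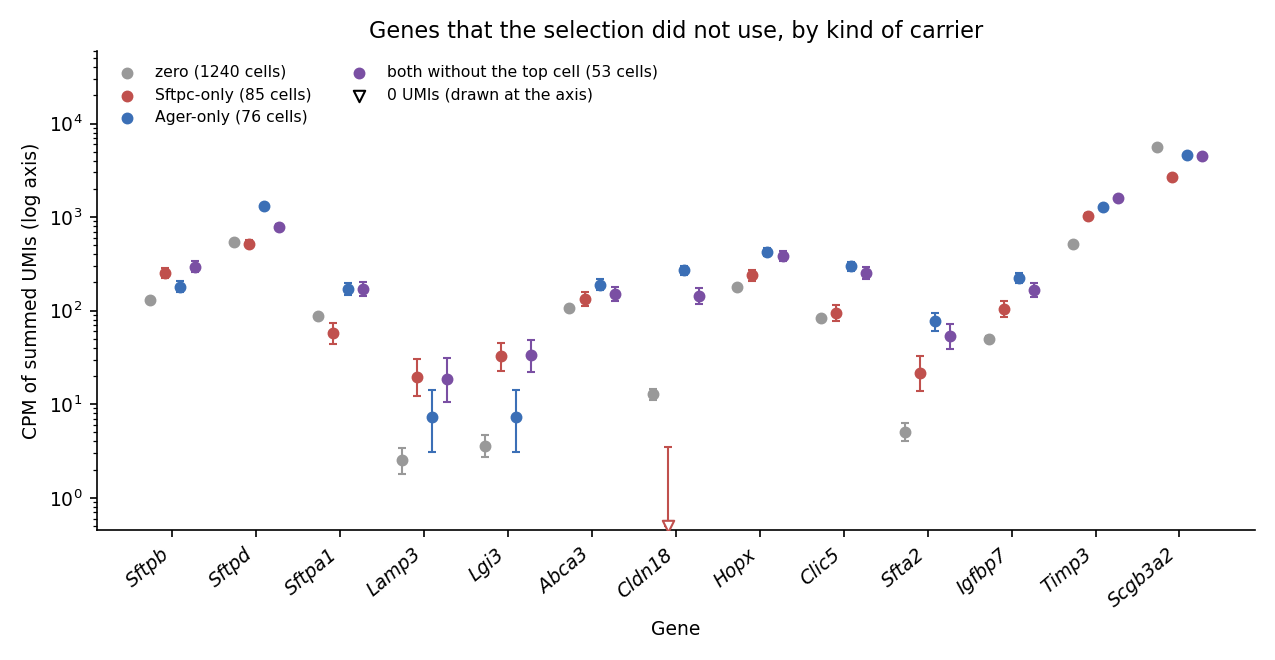
Summed CPM (y axis, log scale) of 13 genes in zero cells (1240), Sftpc-only (85), Ager-only (76) and both (53, without the cell with the most Sftpc) cells of 1 library, with exact Poisson 95% intervals as bars; a triangle marks 0 UMIs. Cldn18 has 0 UMIs in Sftpc-only and 271 CPM in Ager-only cells, while Lgi3 is at 32.8 and 7.23 CPM.

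The genes furthest apart by size included ciliary genes and leading genes of clusters 5, 6 and 7. Higher in Sftpc-only cells were the ciliary genes Enkur (19.4-fold, 6.30 to 96.8), Cfap126 (14.3-fold), Cfap44 and Dnah12 (13.0-fold each), Dynlrb2 (12.2-fold), Dnah5 (8.12-fold) and Tuba1a (7.33-fold), and AU040972 (386 against 35.2 CPM, 11.0-fold), a leading gene of the ciliated-like cluster. Only 5 of the Sftpc-only carriers and 1 of the Ager-only carriers were in that cluster. With Ager-only cells weighted by cluster the log2 ratios fell, from 2.90 to 1.93 for Enkur, from 3.21 to 1.59 for Cfap126, from 2.85 to 1.11 for Cfap44 and Dnah12, from 3.08 to 1.10 for Dynlrb2, from 2.74 to 0.53 for Dnah5, from 2.74 to 1.28 for Tuba1a and from 3.28 to 1.04 for AU040972. The weights covered 77.6% of the Sftpc-only UMIs. Clusters 3, 4 and 8 had no Ager-only carriers, but their 4, 7 and 2 Sftpc-only carriers stayed in the sum. Cluster 8 (21 cells, unnamed, 12 called doublets) had 14 ciliated markers at 2-fold or more. The weighted ratios are therefore not fully matched by cluster. Lower in Sftpc-only cells were the chemokine genes Ccl20 (3.75 against 943 CPM, 251-fold), Cxcl10 (0 against 131 CPM, at least 46.6-fold) and Cxcl9 (0 UMIs, at least 32.1-fold). Also lower were Cldn18 (at least 96.3-fold), Tnfaip2 (88.0-fold, 29.8 to 429), Msln (54.1-fold), Ubd (42.8-fold) and the transcription factor gene Spib (0 against 89.5 CPM, at least 31.8-fold). Most of these differences were far smaller without the cluster led by Ccl20 or with the weights by cluster. The log2 ratio of Ccl20 was -6.76, and -1.07 and -0.04 under these alternatives in that order; for Cxcl9 it was -4.25, -2.04 and -0.91, for Spib -4.24, -1.08 and -0.42, for Tnfaip2 -5.01, -1.23 and -0.78, for Msln -4.74, -2.94 and -1.84, and for Ubd -4.41, -3.10 and -1.86. Cxcl10 (-4.77, -4.86 and -3.21) and Cldn18 (-5.79, -4.91 and -3.83) kept more of theirs. Cxcl10 and Cxcl9 are leading genes of basal-like cluster 5, which held 2 Sftpc-only and 9 Ager-only carriers. Cldn18 is a leading gene of cluster 6, which held 1 and 8.

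Among cells without Sftpc, the AT1 genes Cldn18, Hopx, Clic5 and Timp3 stood at higher levels where there were more Ager UMIs. So did Sfta2 and Igfbp7, which are on neither the AT1 nor the AT2 list, and the AT2 gene Sftpd. In cells with 0, 1, 2 to 9 and 10 or more Ager UMIs (1240, 42, 55 and 21 cells, with median depths between 11933 and 12678 UMIs), Cldn18 was at 12.8, 64.5, 208 and 419 CPM, and was counted in 2.5%, 7.14%, 21.8% and 66.7% of the cells. Hopx was at 178, 187, 274 and 775 CPM, Clic5 at 83.4, 115, 242 and 428 CPM, Sfta2 at 5.10, 27.9, 54.2 and 130 CPM, Igfbp7 at 49.7, 122, 201 and 272 CPM, and Timp3 at 511, 804, 1173 and 1503 CPM. Sftpd was at 537, 598, 1213 and 1515 CPM. Sftpb, also an AT2 gene, did not have that order, at 129, 117, 212 and 109 CPM. Within cluster 1 alone (208, 6, 19 and 11 cells) Hopx was at 106, 244, 312 and 892 CPM and Sfta2 at 3.56, 46.5, 99.9 and 213 CPM. Cldn18 was at 1.78, 0, 9.37 and 337 CPM there, with its large step at 10 or more Ager UMIs. Sftpd in cluster 1 did not have that order, at 1102, 2035, 1202 and 1167 CPM. Cluster 0 (230, 11, 15 and 1 cells) did not show that order in every gene: Sfta2 was at 22.1, 13.3, 14.2 and 0 CPM, Igfbp7 at 126, 386, 128 and 996 CPM, Hopx at 204, 293, 262 and 553 CPM and Timp3 at 1590, 2061, 2347 and 2655 CPM, on few UMIs in the last cell. Sftpd in cluster 0 was at 26.8, 26.6, 163 and 774 CPM.

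Among cells without Ager, those with more Sftpc UMIs had more RNA of some AT2 genes and of Hopx and Ndnf on the AT1 list. They had no more Cldn18. In cells with 0, 1, 2 to 9 and 10 or more Sftpc UMIs (1240, 99, 60 and 25 cells, median depths 11965, 12192, 10625 and 13300 UMIs), Sftpb was at 129, 157, 213 and 338 CPM and was counted in 37.5%, 39.4%, 56.7% and 72.0% of cells. Lgi3 was at 3.60, 14.2, 28.1 and 43.8 CPM and was counted in 4.27%, 15.2%, 28.3% and 48.0% of cells. Lamp3 was at 2.52, 2.36, 1.34 and 62.6 CPM and Ndnf, a secreted neurotrophic protein gene of the AT1 list, at 4.32, 4.72, 16.1 and 50.1 CPM, so that Lamp3 stood out at 10 or more UMIs of Sftpc. Other AT2 genes did not have that order: Sftpd was at 537, 239, 469 and 633 CPM and Sftpa1 at 86.7, 29.1, 38.8 and 100.2 CPM. Igfbp7 was at 49.7, 60.6, 97.8 and 122 CPM, and Hopx at 178, 199, 220 and 282 CPM. Cldn18 was at 12.8, 0.786, 0 and 0 CPM. In cluster 0 alone (230, 46, 37 and 14 cells) Sftpb was at 120, 242, 229 and 480 CPM and Lamp3 at 2.57, 3.90, 2.86 and 83.7 CPM. Lgi3 spanned a smaller range in cluster 0 than over the library, at 15.9, 29.2, 48.7 and 45.7 CPM, with 6 UMIs in the last bin. In cluster 1 it was at 1.19, 16.6, 26.2 and 21.0 CPM, on 2 UMIs in each bin with Sftpc. Hopx was at 204, 199, 243 and 381 CPM in cluster 0 and at 106, 58.1, 131 and 73.6 CPM in cluster 1. In cluster 1 (208, 9, 6 and 6 cells) Sftpb was at 202, 257, 157 and 305 CPM, without that order, and Lamp3 and Ndnf, each at 1.48 CPM in zero cells, had 0 UMIs in all 3 bins with Sftpc.

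**Figure D4:**
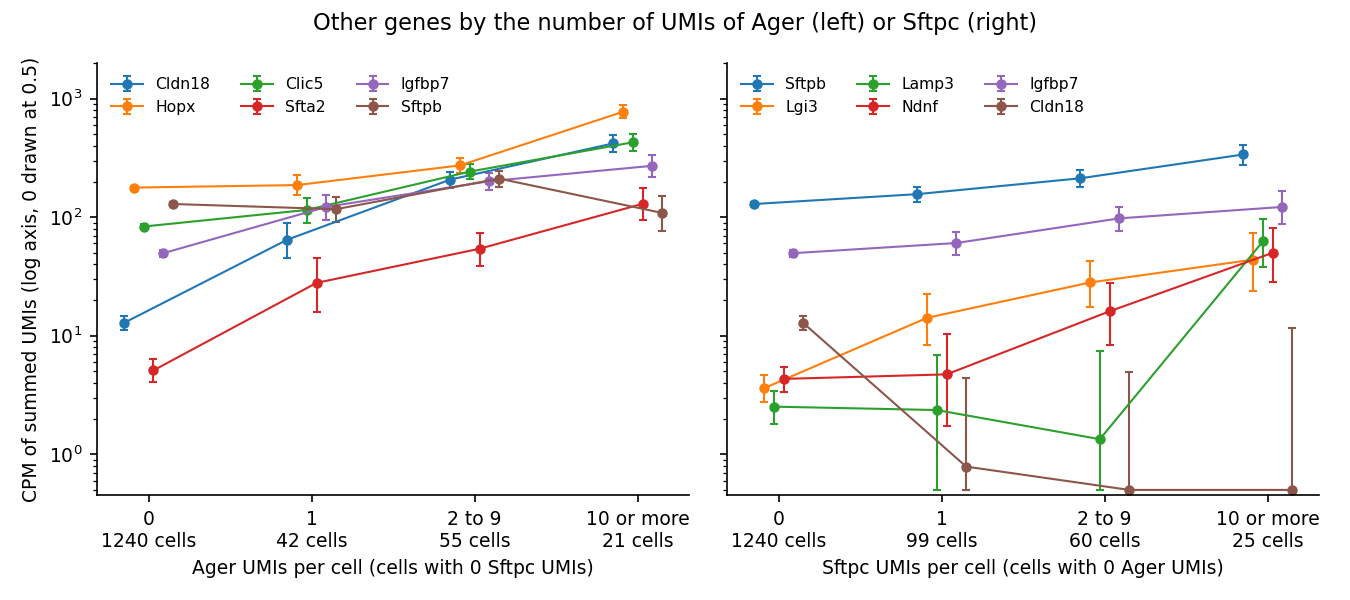
Summed CPM (y axis, log scale, zeros drawn at 0.5) by UMIs of Ager in cells without Sftpc (left) and by UMIs of Sftpc in cells without Ager (right), with exact Poisson 95% intervals as bars. On the left Cldn18 goes from 12.8 to 419 CPM while Sftpb ends at 109 CPM; on the right Sftpb goes from 129 to 338 CPM and Cldn18 to 0.

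Within basal-like cluster 0, 90 carriers were compared with 230 zero cells of the same cluster. Of 6430 genes 201 (3.13%) were higher and 103 (1.6%) lower in carriers, with a median log2 ratio of 0.02. Of 11 AT2 markers tested 6 were higher and 0 lower (median 0.56), and of 23 AT1 markers 6 were higher and 1, Cryab, lower (median 0.16). Lamp3, Lgi3 and Ndnf are among the higher ones and reached 20 CPM in carriers alone, so they had to be higher. Sftpb was at 250 against 120 CPM (2.08-fold, 1.72 to 2.52), counted in 54 of the 90 carriers. Lamp3 was 8.84-fold higher (3.19 to 30.3) on 19 against 5 UMIs, Lgi3 2.78-fold (1.68 to 4.63), Scd1 1.55-fold and the cathepsin gene Ctsh, which processes surfactant protein precursors, 1.52-fold. Sftpd was 2.15-fold higher (1.42 to 3.24), with 33.3% of its carrier UMIs from 1 cell, a ratio of 1.47 without that cell, and a log2 ratio of -0.45 at the finer cluster resolution of 1.2.

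The AT1 markers higher in cluster 0 were Ndnf (27.5 against 5.66 CPM, 4.87-fold), Col4a3 (1.76-fold), Clic5 (1.62-fold), Sec14l3 (1.57-fold), Gramd2 (1.56-fold) and Col4a4 (1.53-fold). Igfbp7 was 1.77-fold higher (223 against 126 CPM). Cldn18 was too low to be tested there, with 11 UMIs in carriers and 33 in zero cells (log2 ratio -0.27, and 2.41 in the broader cluster at resolution 0.5), and Hopx (1.31-fold), Timp3 (1.28-fold), Sfta2 (1.24-fold) and Nkx2-1 (1.35-fold) were not called. The basal genes Trp63 (0.982 times) and Krt5 (0.903 times) were within the 1.5-fold bound, while Krt17 was lower (0.473 times). Scgb3a2 was lower as well, at 52.7 against 211 CPM (0.250 times, 0.179 to 0.341).

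Within secretory-like cluster 1, 58 carriers and 208 zero cells were compared. Of 5184 genes 325 (6.27%) were higher and 338 (6.52%) lower, with a median log2 ratio of 0.03. Of 21 AT1 markers 8 were higher and 0 lower (median 0.44), and of 16 AT2 markers 9 were higher and 1, Fabp5, lower (median 0.66). Cldn18, Pdpn, Col4a4, Dram1 and Scd1 among them reached 20 CPM in carriers alone. Cldn18 was at 129 against 1.78 CPM, 72.2-fold higher (32.3 to 200.3) on 129 against 6 UMIs. These came from 11 of the 58 carriers, and its log2 ratio was 0.58 without high carriers and 2.60 at resolution 0.5, in place of 4.30. Sfta2 was 31.6-fold (113 against 3.56 CPM, in 30 carriers), Igfbp7 22.3-fold (92.7 against 4.16 CPM) and Hopx 3.66-fold higher (387 against 106 CPM). Clic5 was 2.40-fold, Col4a4 2.22-fold, Pdpn 2.05-fold and Timp3 2.01-fold higher. The log2 ratio of Timp3 was 0.38 without high carriers and 0.25 at resolution 1.2, in place of 0.99, and that of Sfta2 was 2.38 at resolution 1.2 in place of 3.78.

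On the AT2 side of cluster 1, Sftpb was at 375 against 202 CPM (1.86-fold, 1.63 to 2.11). Sftpa1 was 2.66-fold higher, and 1.41-fold without the cell with the most Sftpc. Lyz2 was 7.30-fold higher, and 3.75-fold without its leading cell. Scd1 was 3.72-fold, Dram1 2.71-fold, Lpcat1 1.97-fold, Slc34a2 1.69-fold, Ctsh 1.62-fold and Npc2 1.56-fold higher, while Sftpd (1.23-fold) was not called. The foregut factor genes Nkx2-1 (67.8 against 42.1 CPM, 1.61-fold, 1.19 to 2.16) and Foxa2 (1.71-fold, 1.07 to 2.67) were higher and Foxa1 was lower (0.562 times). The secretoglobin genes differed: Scgb1a1 was at 0.964 times its level in zero cells, Scgb3a2 at 0.648 times and Scgb3a1 at 0.0750 times (629 against 8378 CPM).

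Inside cluster 1 the split by rule gene was again seen, in 12 Sftpc-only and 30 Ager-only carriers. Hopx was at 99.2 and 530 CPM, against 106 CPM in zero cells of the cluster. Clic5 was at 99.2 and 403 CPM, Sfta2 at 5.83 and 142 CPM, Igfbp7 at 17.5 and 131 CPM, and Cldn18 at 0 and 132 CPM. In the smaller clusters, Cldn18 was at 601 CPM in the 14 carriers and 3.65 CPM in the 46 zero cells of cluster 6, and Hopx at 973 and 148 CPM. In cluster 7, Cldn18 was at 811 CPM in the 11 carriers and 199.5 CPM in the 41 zero cells, so that there zero cells had it too.

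**Figure D5:**
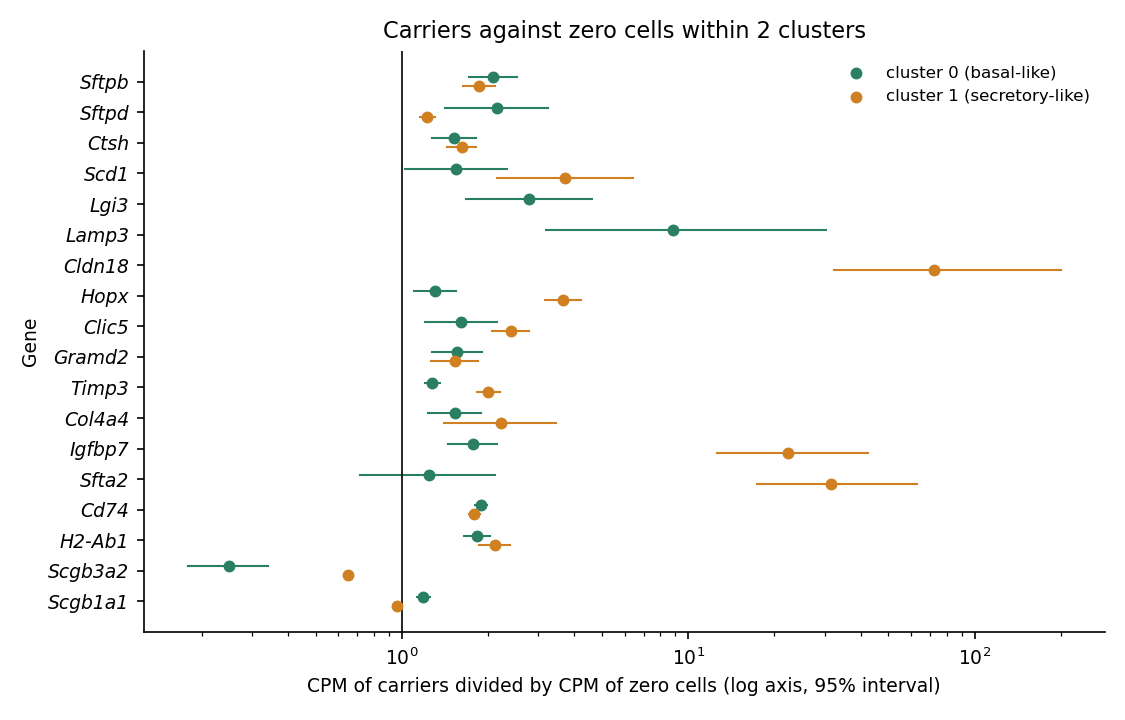
Ratio of summed CPM of carriers to zero cells (x axis, log scale) for 18 genes within basal-like cluster 0 and within secretory-like cluster 1, with exact 95% intervals; a gene without a mark in a cluster was too low there. Cldn18, Sfta2 and Igfbp7 reach 72.2-, 31.6- and 22.3-fold in cluster 1, Sftpb is near 2-fold in both, and Scgb3a2 is below 1 in both.

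In the 67 high carriers most of these ratios were larger. Of 6531 genes 345 (5.28%) were higher and 989 (15.1%) lower than in zero cells. The higher genes were 25.9% of the calls, 36.6% with TMM scaling and 54.0% with zero cells weighted to the clusters of high carriers. Of 25 AT1 markers 14 were higher and 2 lower (median 0.68), and of 20 AT2 markers 15 were higher and 2 lower (median 0.98). Of the higher ones 5 AT1 and 5 AT2 markers, Cldn18, Lamp3 and Lgi3 among them, reached 20 CPM in high carriers alone. Cldn18 was at 255 CPM (19.9-fold, 16.5 to 24.0), Sfta2 at 98.1 CPM (19.2-fold), Clic5 at 319 CPM (3.82-fold) and Hopx at 547 CPM (3.07-fold). Lamp3 was at 38.8 against 2.52 CPM (15.4-fold, 9.66 to 24.5) in 12 of the 67 cells, and Lgi3 was 7.94-fold and Nkx2-1 1.84-fold higher (109 against 59.3 CPM).

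Rasl11a was 6.58-fold, Ly6i 5.65-fold, Retnla 4.86-fold and Igfbp7 4.24-fold higher in high carriers. Sftpa1 was 4.68-fold higher, at 406 CPM, and at 151 CPM without the cell with the most Sftpc. Bpifa1 had 0 UMIs in high carriers (at least 48.7-fold lower). Genes with 1 to 3 UMIs there were lower by 109-fold (Cyp2a5, 19.5 to 4299), 49.2-fold (Areg, 13.6 to 406), 45.1-fold (Muc16, 15.4 to 219) and 29.7-fold (Agr2, 10.2 to 144). Ltf was 20.2-fold, Bpifb1 16.3-fold and AU040972 14.9-fold lower. With zero cells weighted by cluster the log2 ratio went from -4.95 to -3.59 for Bpifa1, from -3.90 to -2.69 for Areg and from -3.77 to -1.88 for AU040972. Scgb3a2 was called lower here (0.566 times), which it was not over all carriers.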

How the data were processed

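The deposited gene by barcode tables hold raw UMI counts of the 4 libraries; per the submitters' processing notes the authors used Cell Ranger, STARsolo, Seurat and GRCm38, with no versions, and which of the first pair counted, with or without strand, is not given in the sources used here. A single library stands for each group. Carriers, zero cells, genes and lists were chosen with earlier results of these data known. Barcodes with at least 500 genes were kept, 1596 of 1596 in the library described, with 3394 to 70206 UMIs each.

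Raw counts were summed over the cells of a group and written as CPM with exact Poisson intervals; ratios of sums have exact conditional binomial intervals, and log2 ratios use CPM plus 5. Genes needed 20 CPM in either sum and 20 UMIs over both. Named genes were the 12 (carriers) or 8 (other comparisons) highest and lowest log2 ratios among those with at least 50 CPM, 30 UMIs, 2-fold and an interval bound 1.25-fold from 1, without Sftpc, Ager, sex-linked, mitochondrial, reporter and unnamed features, plus members of the AT1, AT2, distal airway, transitional and transcription factor lists. Intervals (95%) cover counting error only, and a count of 0 was read as up to 3 counts.

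Cells were clustered with scanpy 1.11.5 and leidenalg 0.10.2 (2000 variable genes, 30 principal components, 15 neighbours, resolution 0.8). Clusters were named from markers by a rule set after seeing the data: at least 3 markers of the class at 2-fold, at least 2 of them among the 10 leading genes and no more of another class. Doublet calls and cells with over 20% mitochondrial UMIs were kept, and left out as an alternative. TMM factors came from edgeR 4.0.16 in R 4.3.3, for scaling only. Of 328 list genes 3 had no matching symbol. The scripts were tested on simulated counts. Leaving out the top carrier, high carriers within clusters, or the cluster led by Ccl20 were alternatives chosen after seeing the data; the others changed thresholds, filters, scaling, depth, pseudocounts and cluster resolution.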

Additional observations from a re-analysis of the deposited data

How the results depend on the processing

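The share of barcodes that were carriers followed the threshold: 22.3% with at least 1 UMI, 9.84% with at least 3, 6.70% with at least 5, and 8.49% after thinning to 5000 UMIs, against 13.5%. The 2 clusters with most carriers held 68.8% of them, 79.1% at resolution 0.5 and 47.4% at resolution 1.2. For carriers against zero cells (192 higher, 621 lower), the counts were 101 and 275 with at least 50 CPM and 524 and 1379 with no filter on low counts; 302 genes were higher after thinning, and 177 were lower with zero cells weighted by cluster. For Sftpc-only against Ager-only carriers (969 higher, 317 lower), they were 490 and 628 with TMM scaling and 460 and 197 with at least 50 CPM; 358 were higher after thinning, and 637 with the comparison group weighted by cluster. For high carriers (345 higher, 989 lower), they were 186 and 432 with at least 50 CPM and 525 and 1535 with no filter, and 341 were lower when weighted by cluster. Within cluster 1, 82 genes were lower at resolution 1.2 in place of 338. Fewer genes are tested under the stricter filter and more under none; the cause of the other shifts was not tested. Of single genes that were called, 4 values turned their direction: in Sftpc-only against Ager-only carriers Lyz2 went to -0.57 (mean of per-cell CPM) and -0.31 (thinned) on the log2 scale from 0.63, and Scgb3a2 to 0.0081 when weighted by cluster, which covered 77.6% of the UMIs; within cluster 0 Sftpd went to -0.45 at resolution 1.2 from 0.98. Genes that were not called turned too within cluster 0: Cldn18 from -0.27 to 2.41 at resolution 0.5 and Sfta2 from 0.26 to -0.03 without high carriers. Over all alternatives 734 values lay within the counting interval of the reported one, 302 lay outside it and these 4 turned. No paired analysis was possible because each group is 1 library. Genes with few UMIs in carriers, such as Rtkn2 with 2, have wide counting intervals.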

Other observations

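Genes of MHC class II, which present antigen and are expressed by some airway and alveolar epithelial cells, were higher in carriers than in zero cells for 6 of 7 measured (median log2 ratio 0.89), beside 2.98% of all genes tested that were higher; Ciita among them reached 20 CPM in carriers alone. The invariant chain gene Cd74 was at 3748 against 1846 CPM (2.03-fold, 1.99 to 2.08) and H2-Aa at 824 against 395 CPM (2.09-fold). Within cluster 0 Cd74 was 1.89-fold and H2-Aa 1.86-fold higher, and within cluster 1 they were 1.79- and 2.28-fold higher. Cd74 was at 2471 CPM in Sftpc-only and 5489 CPM in Ager-only carriers. The 12 immune markers summed to 30.02 CPM in carriers and 34.9 CPM in zero cells, and their part in this difference was not tested.

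Of 20 genes of other endodermal organs 2 could be tested, and the fetal liver gene Afp was higher in carriers (23.7 against 13.4 CPM, 1.76-fold, 1.33 to 2.31), at 8.44 CPM in Sftpc-only and 30.7 CPM in Ager-only cells. Dclk1, on the list of tuft cell genes, was at 71.1 against 39.0 CPM (1.82-fold) while the tuft cell gene Trpm5 and the ionocyte gene Foxi1 had 0 UMIs in carriers. Of 7 heat shock genes 0 were higher and 3 were lower in carriers, and of 10 immediate early genes 0 were higher and 3 lower, beside 9.63% of all genes tested that were lower. Fosb, among the lower immediate early genes, reached 20 CPM in zero cells alone, so it had to be lower.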
